A study of Rattus norvegicus with 192 samples.

Results

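The comparison was made between the prefrontal cortex of rats exposed to ethanol before birth and that of control rats, all of them injected with adjuvant as adults and taken 16 days later. It rested on 18 arrays, 9 from ethanol rats and 9 from control rats, out of 192 in the series, and each rat entered with a single array, chosen by its title. All were adult female Sprague Dawley rats whose dams had received ethanol in a liquid diet (ethanol, 36% of calories, gestation days 1 to 21) or laboratory chow (control). Both groups were weaned on postnatal day 22 and received, at 50 to 65 days of age, 0.1 ml of complete Freund's adjuvant (12 mg/ml) in the skin at the base of the tail. The adjuvant induces arthritis in the joints, and the brain itself was not injected. The dams of the control group ate a solid diet without limit, so the diet's form and amount differ between the groups along with ethanol, and only the pairfed rats, whose dams received a liquid diet without ethanol in matched amounts, separate these. No label names the litter of a rat, so the p-values treat rats as independent.

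Complete Freund's adjuvant contains killed mycobacteria in oil and provokes a lasting immune response. Cytokines from such a response reach the brain through the blood and through nerve signals, and there they alter microglia, vessels and the release of corticosteroids. Prenatal ethanol is known to change the hormonal stress axis and the immune responses of adult offspring, and the prefrontal cortex is a region in which stress and immune signals act on neurons that govern attention and behaviour.

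The labelled tissue was checked against its markers. Transcripts of cortical neurons (Snap25, Slc17a7, Gad1 and Neurod6) and of glia (Mbp and Gfap) were detected on 18 of 18 arrays. Hippocampal genes varied: Fibcd1 was detected on 1 array, Prox1 on 9 and Wfs1 on 17. Choroid plexus genes were detected on 0 arrays for Folr1 and Clic6, 2 for Kl and 6 for Ttr. The thalamic gene Tcf7l2 was detected on 5 arrays and Prkcd on 18. Genes of the neighbouring striatum were present: Adora2a and Ppp1r1b on 18 arrays, Drd2 on 17 and Drd1 on 15. Hbb, a hemoglobin gene of red blood cells, was detected on 18 arrays, at log2 levels of 12.21 to 14.13. The 18 arrays detected 8890 to 10898 probes. Control replicate 5 detected the fewest. Of the 18 it also had the lowest median correlation with the other cortex arrays (0.954) and the lowest quality weight (0.48). One rat, ethanol replicate 1, lay apart from its group more often than any other, and a value that its removal moves by over 1.5 times is given without it too.

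The question the comparison answers is which genes of the inflamed rat's cortex differed with prenatal ethanol. No gene passed the test. A chip carries several arrays, and each of the 8 chips held rats of both groups. Of 15250 probes tested with limma, with the chip as a block, 0 had an adjusted p below 0.05 (0%), and the smallest adjusted p was 0.211. It was 0.457 without ethanol replicate 1. It was 0.0574 without 1 array that enters only the shared spread and the chip effects, pairfed saline replicate 3, whose label an earlier account of these data doubted. At an unadjusted p below 0.05, 378 probes lay higher in the ethanol rats (2.48%) and 345 lower (2.26%), 723 together or 4.74% of those tested. In 0 probes did all ethanol rats lie above all control rats, and in 0 did they all lie below (0% each).

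The differences were small as well as uncalled. The log2 difference was under 0.25 in size for 82.8% of probes, and its standard error had a median of 0.18. A typical 95% interval reached 0.357 to either side on the log2 scale, which is 1.28-fold. For 98.8% of probes the whole interval lay within 1 on the log2 scale, a doubling or halving, so larger differences in those probes were outside their own intervals. Only 4 probes differed by more than 1: RT1-A1 and RT1-A3, described with the class I genes, on the lower side, and Spock2 and the unnamed ILMN_1355600 on the higher side (differences of 1.12 and 1.02, unadjusted p 0.0914 and 0.113, picked out here for their size). The plot of difference against p shows them at its outer edges and not at its top.

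**Figure D1:**
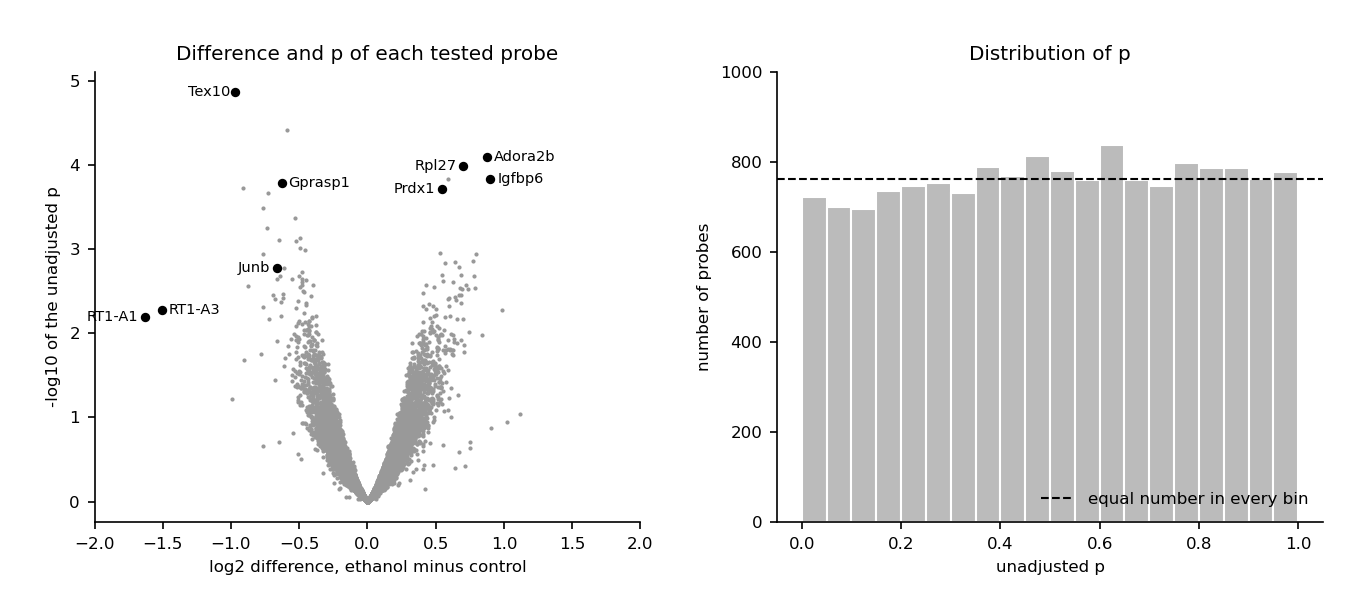
Left, the log2 difference (ethanol minus control, horizontal axis) and the -log10 of the unadjusted p (vertical axis) of each of 15250 probes, with some of the genes described in the text marked. Right, the number of probes in bins of p. The first bin, below 0.05, holds 723 probes, and the dashed line marks an equal number in every bin.

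Repeat arrays allow this spread to be set beside that of the measurement. One control rat (replicate 1) had been hybridized 9 times, on 8 chips. The SD among its repeat arrays had a median of 0.334 over probes, against 0.378 among the 9 control rats and 0.335 among the 9 ethanol rats. Rats of the control group varied more than the repeats in 62.2% of probes.

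The 12 named genes with the smallest p on the higher side were a mixed group. Adora2b, a low-affinity adenosine receptor, led them. Its log2 level was 6.17 to 7.47 (median 6.68) in the ethanol rats and 4.94 to 6.64 (median 5.83) in the control rats. The difference was 0.87 ± 0.21 (SE) on the log2 scale, or 1.83-fold, and limma gave an adjusted p of 0.323. The groups overlapped, but 9 of 9 ethanol rats lay above the control median.

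Rpl27, a protein of the large ribosomal subunit, had log2 levels of 12.44 to 13.28 (median 12.61) in the ethanol rats and 11.19 to 12.50 (median 12.19) in the control rats. The difference of 0.70 ± 0.17 (adjusted p 0.323) had the same direction on 8 of 8 chips. Of the 3 lowest control values one, 11.56, belonged to the rat hybridized 9 times, and its 8 other arrays read 12.32 to 12.70. With its arrays averaged the difference was 0.615 (adjusted p 0.789). Without ethanol replicate 1, whose level was the highest, it was 0.61.

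Prdx1, an enzyme that reduces peroxides, had log2 levels of 11.79 to 12.48 (median 11.95) in the ethanol rats and 11.07 to 12.04 (median 11.57) in the control rats. The difference was 0.54 ± 0.14 (adjusted p 0.323), higher on 7 of 8 chips. One control value of Prdx1, 11.16, belonged to the rat hybridized 9 times, whose other arrays read 11.55 to 12.34. Igfbp6, which binds insulin-like growth factors in the extracellular space, had levels of 7.95 to 8.95 (median 8.43) in the ethanol rats and 5.77 to 8.56 (median 7.93) in the control rats. Its difference was 0.90 ± 0.23 (adjusted p 0.323), and 5 control rats lay below all ethanol rats. The lowest, at 5.77, was control replicate 5, and the next lay at 6.73.

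Cort encodes cortistatin, a neuropeptide of cortical interneurons, and lay 0.64 ± 0.19 higher, at 8.29 to 9.22 (median 8.73) in the ethanol rats and 7.13 to 8.85 (median 8.12) in the control rats. Its lowest control value, 7.13, belonged to the rat hybridized 9 times, whose other arrays read 8.145 to 8.57. Ddr1, a collagen-binding receptor kinase, differed by 0.78 ± 0.23 and was detected on 9 ethanol and 5 control arrays. Ift20, a cilium transport protein, differed by 0.53 ± 0.16, and Acot8, a peroxisomal thioesterase, by 0.55 ± 0.17. The lowest control value of Acot8, 6.11, was that of control replicate 5, and the next was 7.84. The orphan cytochrome Cyp20a1 differed by 0.78 ± 0.25 and Tmem109, a membrane protein detected on 1 control array, by 0.67 ± 0.21. In these 6 genes the adjusted p was 0.835 for Ift20 and 0.9 for the others.

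The last 2 of the group were dim. Foxs1, a forkhead transcription factor, was detected on 8 ethanol arrays and on 0 control arrays, and its level was at least 1.11-fold higher in the ethanol rats, against the lowest signal an array could detect (adjusted p 0.9). Proca1 was detected on 4 ethanol and 0 control arrays, with medians of 5.32 and 4.84, so no fold is given (adjusted p 0.323). Repeat arrays of 1 control rat ran from 4.839 to 5.449 for Proca1.

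On the lower side Tex10 had the smallest p of all probes. It encodes a nuclear protein of ribosome assembly. Its log2 level was 4.82 to 6.47 (median 5.97) in the ethanol rats and 6.38 to 7.23 (median 7.01) in the control rats. The difference was -0.97 ± 0.21, with a 95% interval from -1.39 to -0.55, an unadjusted p of 1.38e-05 and an adjusted p of 0.211 in limma. All 9 ethanol rats lay below the control median, and the ethanol mean was lower on 8 of 8 chips, yet the highest ethanol rat still exceeded the lowest control rat. The rat hybridized 9 times was the highest control rat at 7.23, and its 8 other arrays read 6.31 to 6.995. With its arrays averaged the difference was -0.922 (adjusted p 0.244). Fitted to the 27 adjuvant rats of day 16 alone, Tex10 passed, with a difference of -0.945 and an adjusted p of 0.0157.

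Several neuronal genes stood beside it. Gprasp1, which directs internalized receptors to lysosomes, had levels of 10.96 to 11.76 (median 11.37) in the ethanol rats and 11.67 to 12.48 (median 12.00) in the control rats. The difference was -0.62 ± 0.16 (adjusted p 0.323), and 9 of 9 ethanol rats lay below the control median. Slitrk1, a neuronal membrane protein, ran 4.79 to 6.86 (median 6.45) in the ethanol rats and 6.53 to 7.56 (median 7.02) in the control rats. Its difference was -0.91 ± 0.23 (adjusted p 0.323), and without ethanol replicate 1, the lowest, it was -0.73. Its highest control value, 7.56, belonged to the rat hybridized 9 times, whose other arrays read 5.50 to 7.37. Il1rapl1, a synaptic adhesion protein of the interleukin-1 receptor family, had levels of 4.81 to 6.29 (median 5.58) in the ethanol rats and 6.04 to 6.998 (median 6.42) in the control rats. It differed by -0.77 ± 0.20 (adjusted p 0.449), lower on 8 of 8 chips. The highest control value, 6.998, belonged to the rat hybridized 9 times, whose other arrays read 5.43 to 6.76.

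Cebpb, a transcription factor of inflammatory and acute phase genes, had levels of 7.46 to 8.98 (median 8.09) in the ethanol rats and 8.20 to 9.46 (median 8.94) in the control rats. Its difference was -0.65 ± 0.19 (adjusted p 0.766), with 8 of 9 ethanol rats below the control median. Fbxo7, an adaptor of a ubiquitin ligase, differed by -0.50 ± 0.14, Nedd9, a scaffold of integrin signalling, by -0.53 ± 0.15, and Zc3h6, a zinc finger gene, by -0.74 ± 0.20. Stag1, a cohesin subunit, differed by -0.61 ± 0.19 and was detected on 1 ethanol and 5 control arrays. The adjusted p of these 4 was between 0.656 and 0.9.

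G3bp2, an RNA-binding protein of stress granules, was detected on 0 ethanol and 3 control arrays and lay at least 1.03-fold lower (adjusted p 0.835). Repeat arrays of 1 control rat ran from 4.747 to 5.772 for G3bp2. Enpp3, a nucleotide pyrophosphatase of the cell surface, was detected on 0 and 2, with medians of 4.64 and 5.21 (adjusted p 0.542). Its highest control value, 5.92, belonged to the rat hybridized 9 times, whose other arrays read 4.557 to 5.384. The unnamed probes with the smallest p were ILMN_1353443, at least 1.03-fold lower (adjusted p 0.295), and ILMN_1365399, lower by a difference of -0.73 ± 0.19. On the higher side they were ILMN_1650218, with a difference of 0.80 ± 0.24, and ILMN_1353085, which was detected on 0 control arrays. Of the 24 named leading genes, 12 were detected on all 18 arrays, and in 20 of the 24 all 9 ethanol rats lay on the same side of the control median. Because the 24 were chosen by their p in this comparison, the latter count was bound to be high. The share over all probes was not counted.

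**Figure D2:**
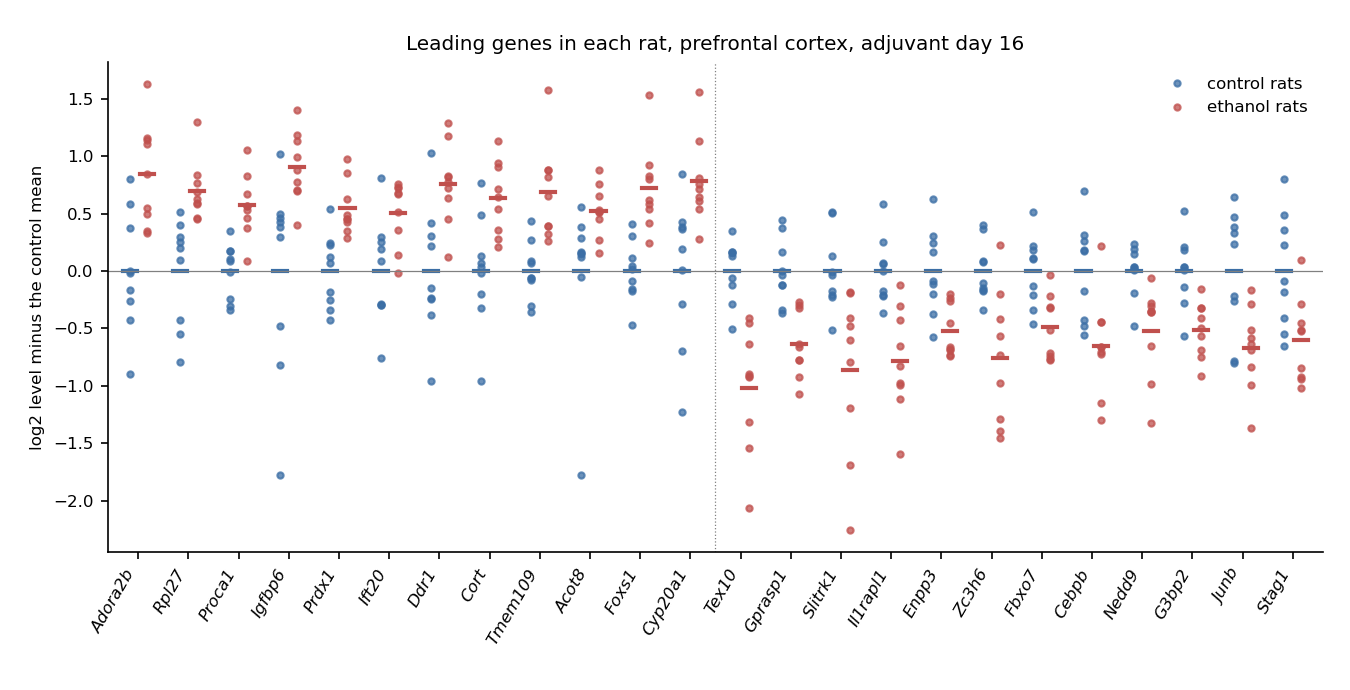
Log2 level of the 12 named genes with the smallest p on the higher side (left of the dotted line) and the 12 on the lower side (right), less the control mean of each gene. Points are rats, 9 in each group, and bars are group means. The groups overlap in every gene, and the adjusted p runs from 0.211 for Tex10 to 0.9.

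Immediate early genes are transcribed within minutes of neuronal activity and encode transcription factors and signalling inhibitors. Junb, one of the leading lower genes, belongs to them. Of 25 measured on the arrays, 18 lay lower and 7 higher in the ethanol rats, with a median log2 difference of -0.113 (15 lower and 10 higher, -0.0679, with median scaling of the arrays in place of quantile normalization). Over all 10168 genes 51% lay higher and the median was 0.0045. An unadjusted p below 0.05 was reached by 6 on the lower side and 1 on the higher side, where 2.4% and 2.54% of all genes did so. None of the 25 passed the adjusted test.

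Junb, a partner of Fos in the AP-1 transcription factor, had log2 levels of 8.13 to 9.34 (median 8.87) in the ethanol rats and 8.70 to 10.15 (median 9.74) in the control rats. All 9 ethanol rats lay below the control median, and the difference was -0.66 ± 0.20 (adjusted p 0.9). Fos itself had levels of 4.59 to 6.63 (median 5.80) in the ethanol rats and 5.96 to 7.84 (median 6.43) in the control rats. Its difference was -0.77 ± 0.26 (adjusted p 1), and the highest control rat, replicate 2, lay apart from the rest. Repeat arrays of 1 control rat ran from 5.42 to 7.07 for Fos and from 9.31 to 10.42 for Junb, a span of similar size to that of the ethanol group.

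Npas4, a factor induced by neuronal calcium, was near background, detected on 2 ethanol and 5 control arrays, and differed by -0.43 ± 0.16. Dusp1, a phosphatase that switches off stress kinases, had levels of 10.17 to 11.11 (median 10.36) in the ethanol rats and 10.53 to 11.51 (median 10.81) in the control rats. It differed by -0.40 ± 0.17 (adjusted p 1) and was lower on 8 of 8 chips. Arc, a synaptic effector, differed by -0.42 ± 0.25 and Dusp6 by -0.26 ± 0.18. On the higher side the member at an unadjusted p below 0.05 was Nr4a2, an orphan nuclear receptor that is also a gene of deep cortical layers, at 5.47 to 7.34 (median 6.82) in the ethanol rats and 4.50 to 6.87 (median 5.99) in the control rats. It differed by 0.84 ± 0.32 (adjusted p 1).

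The mean level of the 25 genes was 6.85 to 7.20 in the ethanol rats (median 6.995) and 6.97 to 7.34 in the control rats (median 7.19). In 8 of 9 ethanol rats it lay below the control median. The list's median stayed negative when each rat was left out in turn (-0.148 to -0.0764) and under 5 other processings (-0.144 to -0.0626). Without ethanol replicate 1, 3 genes in place of 6 reached an unadjusted p below 0.05 on the lower side.

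Activity reaches many of these genes through CREB, a factor that binds the sequence TGACGTCA or its first part, TGACG. The promoters of 3 members are printed to show how their sequences differ while 2 of them lay lower (Junb and Dusp1) and 1 higher (Nr4a2). They come from RefSeq (build GRCr8), from 250 bases before to 50 after the gene's start, read 5′ to 3′ on the strand of the gene, with capitals for TGACG and TGACGTCA on either strand. The Junb promoter is chr19:40080876-40081175 on the plus strand, that of Dusp1 is chr10:17184603-17184902 on the plus strand, and that of Nr4a2 is chr3:62104838-62105137 on the minus strand.
Junb: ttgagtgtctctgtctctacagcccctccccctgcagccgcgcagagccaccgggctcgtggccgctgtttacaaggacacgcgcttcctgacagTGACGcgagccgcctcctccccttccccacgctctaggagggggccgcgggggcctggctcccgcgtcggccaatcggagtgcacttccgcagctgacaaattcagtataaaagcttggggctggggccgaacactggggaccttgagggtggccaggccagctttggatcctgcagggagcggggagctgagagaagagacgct
Dusp1: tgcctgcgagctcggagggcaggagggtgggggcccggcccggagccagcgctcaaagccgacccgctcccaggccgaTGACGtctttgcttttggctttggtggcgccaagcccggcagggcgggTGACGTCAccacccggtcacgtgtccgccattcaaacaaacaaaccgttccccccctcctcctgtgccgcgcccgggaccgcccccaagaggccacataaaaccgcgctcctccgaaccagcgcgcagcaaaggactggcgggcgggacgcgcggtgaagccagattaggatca
Nr4a2: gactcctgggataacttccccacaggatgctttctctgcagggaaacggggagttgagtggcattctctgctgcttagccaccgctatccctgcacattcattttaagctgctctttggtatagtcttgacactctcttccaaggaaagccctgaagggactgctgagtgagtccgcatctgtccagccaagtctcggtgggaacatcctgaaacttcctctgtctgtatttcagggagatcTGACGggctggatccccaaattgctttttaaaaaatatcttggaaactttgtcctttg
Junb held TGACG 1 time and Nr4a2 1 time, while Dusp1 held TGACGTCA 1 time and TGACG 3 times, 2 of those within TGACGTCA, which reads the same on both strands. Of 17 immediate early genes with a promoter in the table, 12 held TGACG and 2 held TGACGTCA. Of all 27457 promoters, 22% held TGACG and 1.91% TGACGTCA. A match of letters describes the sequence only.

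Glucocorticoid hormones, released in stress and inflammation, induce a set of genes through their receptor. Of 18 measured, 13 lay lower and 5 higher, with a median log2 difference of -0.112, while median scaling left 9 lower and 9 higher (-0.0261). On the lower side 4 reached an unadjusted p below 0.05 and on the higher side 0, where 2.4% and 2.54% of all genes did so. None of the 18 passed the adjusted test. Without ethanol replicate 1 there were 2 on the lower side and the median was -0.0736, and leaving out each rat in turn gave medians from -0.191 to -0.0366. The 4 were Cebpb and Dusp1, given above, with Per1 and Sgk1, and Dusp1 is counted among the immediate early genes too. Per1, a clock gene that glucocorticoids also induce, had levels of 7.86 to 8.99 (median 8.17) in the ethanol rats and 8.29 to 9.29 (median 8.84) in the control rats. It differed by -0.55 ± 0.18 (adjusted p 0.9). Sgk1, a kinase that follows corticosteroid levels, had levels of 9.98 to 11.38 (median 10.52) in the ethanol rats and 10.70 to 11.49 (median 10.85) in the control rats and differed by -0.38 ± 0.17 (adjusted p 1). Among the 5 higher members were Tsc22d3, at 0.30 ± 0.17, and Ddit4, at 0.35 ± 0.25, while Fkbp5 stood at -0.11 ± 0.17.

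The corticosteroid receptors and stress peptides leaned the other way. Of 17, 13 lay higher, with a median of 0.124, and 1 reached an unadjusted p below 0.05. That was Penk, the precursor of enkephalin peptides, at 8.39 to 10.09 (median 9.30) in the ethanol rats and 7.12 to 9.46 (median 9.05) in the control rats. It differed by 0.50 ± 0.24 (adjusted p 1). Penk is also a striatal gene, and Adora2a, an adenosine receptor of the striatum, differed by 0.50 ± 0.28, while Ppp1r1b, a striatal phosphatase inhibitor, differed by -0.34 ± 0.18. The mean level of 17 striatal genes was 7.75 to 8.47 in the ethanol rats and 7.81 to 8.25 in the control rats, and its part in the value of Penk was not tested. Avp, the vasopressin precursor, differed by 0.36 ± 0.22 and was detected on 5 ethanol and 1 control arrays.

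Among genes of inflammation, 21 of 30 acute phase, cytokine and NF-kappaB genes lay lower in the ethanol rats, with a median of -0.124. An unadjusted p below 0.05 was reached by 4 on the lower side and 1 on the higher side, where 2.4% and 2.54% of all genes did so. Without ethanol replicate 1 it was reached by 2 on each side. The median was -0.0475 in the authors' deposited values. Ccl5, a chemokine that draws T cells, had levels of 4.92 to 7.61 (median 5.45) in the ethanol rats and 5.28 to 7.46 (median 6.75) in the control rats. It differed by -0.87 ± 0.28 (adjusted p 0.9), with 8 of 9 ethanol rats below the control median. Icam1, an adhesion molecule of activated vessels, differed by -0.58 ± 0.23, all 9 ethanol rats lying below the control median. Cx3cr1, the fractalkine receptor of microglia, differed by 0.52 ± 0.19 and was detected on 7 ethanol and 3 control arrays.

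S100a8 is a calcium-binding protein of neutrophils, and Lcn2 an acute phase protein that brain vessels and glia also make. The level of S100a8 spread over a wide range, 4.84 to 8.11 (median 6.49) in the ethanol rats and 5.09 to 8.68 (median 7.05) in the control rats. Its difference was -0.68 ± 0.32 (adjusted p 1), while repeat arrays of 1 rat ran only from 7.09 to 7.83. Lcn2 had levels of 4.92 to 7.62 (median 5.69) in the ethanol rats and 4.71 to 7.73 (median 6.22) in the control rats, and the repeat arrays ran from 6.30 to 7.73. Its difference of -0.11 ± 0.31, with a 95% interval from -0.73 to 0.50, became 0.05 without ethanol replicate 1. The neutrophil gene S100a9 was detected on 0 of 18 arrays and the T cell gene Cd3d on 0, while Cd3e, also of T cells, was detected on 12. Of 10 neutrophil and blood cell genes 6 lay higher, with a median of 0.065, and their mean level was 5.42 to 5.94 in the ethanol and 5.25 to 5.91 in the control rats. The part of these cells in the values was not tested. Acer2, a ceramidase, differed by -0.12 ± 0.27, and Vwf, a clotting factor of endothelium, by -0.09 ± 0.20, and both turned to slightly above 0 with median scaling. Without ethanol replicate 1 they were -0.04 and -0.0059.

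Complement proteins tag cells and synapses for removal. Of 12 measured, 10 lay lower, with a median of -0.172, the lowest of the 34 lists. On the lower side 3 reached an unadjusted p below 0.05, 1 did so without ethanol replicate 1, and 0 did so with median scaling (median -0.0845). Of all genes 2.4% lay lower at that p. C1s, a protease of the first complement complex, had levels of 6.27 to 7.38 (median 6.77) in the ethanol rats and 6.78 to 7.86 (median 7.31) in the control rats and differed by -0.56 ± 0.22 (adjusted p 1). Cfb, factor B of the alternative pathway, differed by -0.46 ± 0.20, or -0.29 without ethanol replicate 1, its lowest rat. C4b differed by -0.48 ± 0.23, or -0.39 without that rat. It is also 1 of the 4 lower acute phase, cytokine and NF-kappaB genes counted above, so the 2 lists are not separate. The mean level of the list was 7.14 to 7.55 in the ethanol rats and 7.30 to 7.81 in the control rats, and all 9 ethanol rats lay below the control median. Leaving out each rat in turn gave medians from -0.207 to -0.129.

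The 2 largest differences of all probes tested belonged to class I genes of the major histocompatibility complex, which present peptides to T cells and are highly polymorphic. RT1-A1 had levels of 5.58 to 8.47 (median 6.26) in the ethanol rats and 5.25 to 10.41 (median 9.12) in the control rats. The difference was -1.63 ± 0.58, and its unadjusted p of 0.00647 became an adjusted p of 1. RT1-A3 had levels of 5.30 to 7.96 (median 6.38) in the ethanol rats and 6.21 to 9.24 (median 8.82) in the control rats and differed by -1.50 ± 0.53 (adjusted p 1).

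Both probes varied more between rats than between arrays of 1 rat. Repeat arrays of 1 control rat ran only from 9.12 to 9.85 for RT1-A1, an SD of 0.227, against an SD of 1.1 among the ethanol rats and 1.8 among the control rats. For RT1-A1, 5 control rats lay above the highest ethanol rat and 1 lay below the lowest, and for RT1-A3 these counts were 6 and 0. The level of each rat was also measured in its hippocampus. With group means removed, the levels in the 2 tissues of the 18 rats correlated with r = 0.941 and rho = 0.915 for RT1-A1 and r = 0.803 and rho = 0.886 for RT1-A3. The permutation p was 1e-05 for r of RT1-A1 (2e-05 adjusted over the 2 relations), 9e-05 for r of RT1-A3 (9e-05 adjusted) and 1e-05 for both rho (1e-05 adjusted), the smallest the permutations can give. Without the 2 rats farthest from the median r was 0.916 and 0.756.

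RT1-T24-4 differed by -0.90 ± 0.38, with 3 control rats at 7.60 to 8.77, or by -0.72 without ethanol replicate 1, its lowest rat. RT1-CE16 was detected on 0 ethanol and 4 control arrays, at least 1.05-fold lower, and RT1-CE7 differed by -0.46 ± 0.23. The adjusted p of these 3 was 1. Class I genes are near-identical copies of each other, so a probe may read several of them or only some alleles, and the values belong to the probe. Of all 30 class I and class II genes 18 lay lower, with a median of -0.0376, which median scaling turned to 0.0252 and the removal of ethanol replicate 1 to -0.0572. At an unadjusted p below 0.05 stood 5 on the lower side, or 3 without that rat, where 2.4% of all genes stood. Interferon-induced genes showed 11 of 21 lower with a median of -0.0715, or -0.0213 without that rat, and Ifi27 differed by -0.47 ± 0.23.

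**Figure D3:**
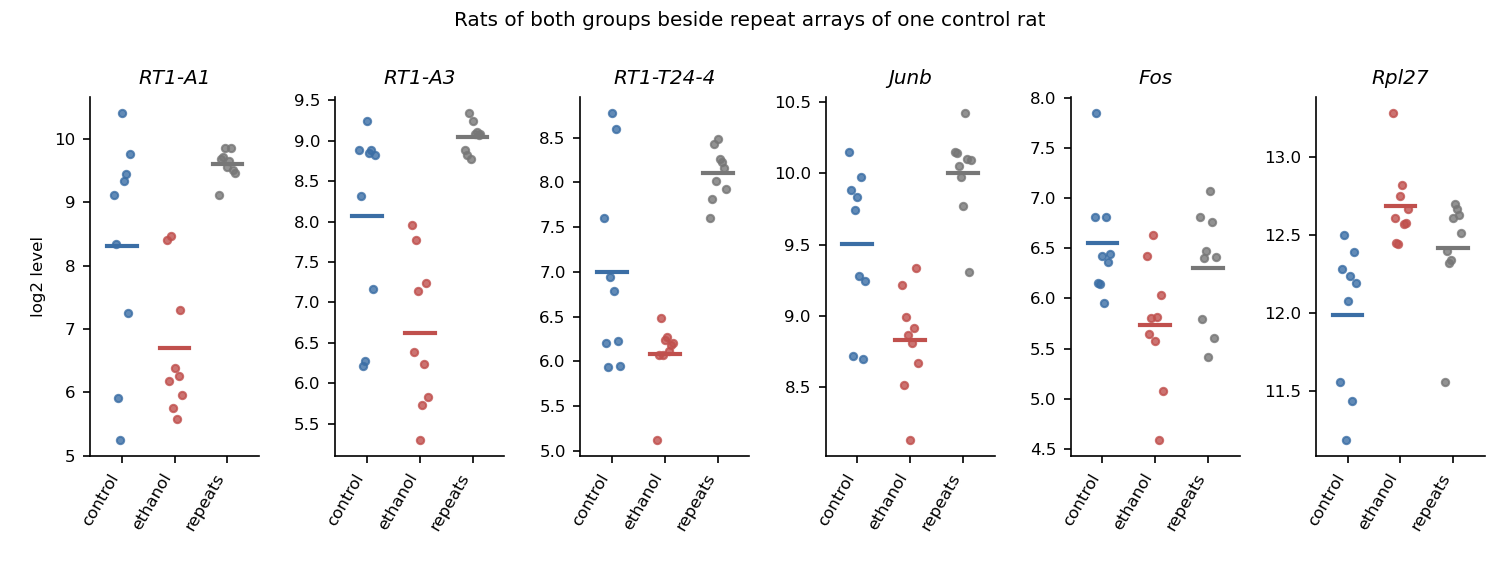
Log2 level of 6 genes in the 9 control rats, the 9 ethanol rats and the 9 arrays of a single control rat (repeats), with bars for the means and a separate axis for each gene. The repeats of RT1-A1 lie between 9.12 and 9.85 while control rats run from 5.25 to 10.41. The repeats of Fos spread from 5.42 to 7.07.

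Genes of the respiratory chain and the ribosome lay slightly higher in most members. Of 60 genes of the mitochondrial respiratory chain 41 lay higher, with a median of 0.0953, and 5 reached an unadjusted p below 0.05, all on the higher side. Median scaling gave 56 and 0.257, and the number of detected probes as covariate 41 and 0.0569. Without ethanol replicate 1, 3 in place of 5 reached that p. Of all genes 2.54% did so on the higher side. Ndufa8, a subunit of complex I, had levels of 10.95 to 11.88 (median 11.36) in the ethanol rats and 9.79 to 11.49 (median 10.96) in the control rats and differed by 0.46 ± 0.16 (adjusted p 1). Ndufb7 differed by 0.44 ± 0.18, Ndufb9 by 0.41 ± 0.19 and Atp5pf, a subunit of ATP synthase, by 0.41 ± 0.16. The mean level of the 60 genes was 11.16 to 11.33 in the ethanol rats and 11 to 11.26 in the control rats, and all 9 ethanol rats lay above the control median. The median of the list was 0.0796 for pairfed minus control and -0.0135 for ethanol minus pairfed rats.

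Of 64 cytosolic ribosomal protein genes 44 lay higher, with a median of 0.0742 (56 and 0.238 with median scaling, 39 and 0.0487 without ethanol replicate 1), and an unadjusted p below 0.05 was reached by 3 on the higher and 1 on the lower side. Beside Rpl27 the higher ones were Rpl5, which differed by 0.54 ± 0.21, and Rpsa, which differed by 0.45 ± 0.20. Of all genes 2.54% lay higher and 2.4% lower at that p. Of 22 translation factors 9 lay higher, with a median of -0.0215 that median scaling turned to 0.131 and the removal of that rat to -0.0099, and Eef1d differed by 0.29 ± 0.14. Ethanol arrays detected 9398 to 10848 probes (median 10093) and control arrays 8890 to 10898 (median 9677), an exact two-sided permutation p of 0.142. The part of this in the 2 lists was not tested.

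Among enzymes of alcohol, aldehyde and glutathione metabolism 23 of 36 lay higher, with a median of 0.0544. At an unadjusted p below 0.05 stood 2 on each side, or 1 on each without ethanol replicate 1. Prdx1 has been given. Gstp1, a glutathione transferase, differed by 0.34 ± 0.16. On the lower side stood Gclc, the rate-limiting enzyme of glutathione synthesis, at -0.34 ± 0.17, and Txnrd1, thioredoxin reductase, at -0.49 ± 0.24, or -0.26 without ethanol replicate 1. The highest control value of Gclc, 10.11, belonged to the rat hybridized 9 times, whose other arrays read 9.281 to 9.872. Of 16 cholesterol synthesis genes 10 lay higher, with a median of 0.0455, and 0 reached an unadjusted p below 0.05.

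Myelin and its cells leaned higher. Of 22 oligodendrocyte and myelin genes 18 lay higher, with a median of 0.167, and 0 reached an unadjusted p below 0.05 (4 with median scaling). This list's median was 0.136 for pairfed minus control and 0.0264 for ethanol minus pairfed rats. Ethanol minus control gave -0.0862 after saline and -0.047 at day 39. Mbp, a structural protein of myelin, had levels of 9.44 to 11.60 (median 10.71) in the ethanol rats and 9.04 to 10.98 (median 10.13) in the control rats. It differed by 0.49 ± 0.29, or 0.30 without ethanol replicate 1. Plekhb1 differed by 0.36 ± 0.18 and Olig1, a factor of the oligodendrocyte lineage, by 0.31 ± 0.17. Of 8 genes of oligodendrocyte precursors 6 lay higher, with a median of 0.168, and 0 reached an unadjusted p below 0.05 (1 without that rat). Their median was -0.0768 for pairfed minus control and 0.163 for ethanol minus pairfed rats. Bcas1, which marks newly formed oligodendrocytes, had levels of 10.78 to 11.71 (median 11.45) in the ethanol rats and 10.30 to 11.28 (median 10.77) in the control rats, and all 9 ethanol rats lay above the control median. The lowest control value, 10.30, belonged to the rat hybridized 9 times, whose other arrays read 10.78 to 12.04. The difference of Bcas1 was 0.51 ± 0.27 (adjusted p 1), and that of Vcan, a matrix proteoglycan, was 0.35 ± 0.22. In bulk tissue more cells of a type and more RNA per cell cannot be told apart.

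Scores of cell types, the mean level of each list in each rat, put these values side by side. The precursor score was 8.07 to 8.46 in the ethanol rats and 7.82 to 8.38 in the control rats, an exact permutation p of 0.0351 and 0.488 after adjustment over 15 scores. The myelin score was 8.58 to 9.21 against 8.42 to 9.09 (exact permutation p 0.135, adjusted 0.488). The hemoglobin score was 9.91 to 10.66 against 9.33 to 10.53 (exact permutation p 0.195, adjusted 0.488). None of the 15 passed, and all overlapped between the groups.

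Of 5 hemoglobin genes 4 lay higher, with a median of 0.178, or 0.28 without ethanol replicate 1. Hba-a3 differed by 0.66 ± 0.34, Hba-a1 by 0.18 ± 0.21 and Hbb by -0.09 ± 0.24. Without that rat Hba-a1 was 0.28 and Hbb 0.0047, and Hbb was 0.0918 with median scaling. The part of blood in other values was not tested. Of 25 microglial genes 12 lay higher, with a median of -0.0048 that median scaling turned to 0.0177 and the removal of ethanol replicate 1 to -0.0346. Ctss, a lysosomal protease, differed by -0.31 ± 0.16 and Aif1, a cytoskeletal marker of microglia, by 0.30 ± 0.16, and without that rat they differed by -0.20 and 0.19. Of 19 astrocyte genes 11 lay higher (median 0.0814, or 0.0086 without that rat), and Aqp4, the water channel of astrocyte endfeet, differed by 0.40 ± 0.32. Of 24 endothelial and mural genes 15 lay higher (median 0.0404, or 0.0674 without that rat), with Ocln at 0.42 ± 0.23 and Cldn5, a tight junction protein, at 0.26 ± 0.17.

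Of 26 meningeal and matrix genes 16 lay lower (median -0.0731, or 0.0206 with median scaling), yet the 3 that reached an unadjusted p below 0.05 were all higher. Beside Igfbp6 these were Ptgds, a prostaglandin synthase of the meninges, at 0.42 ± 0.18, and Col6a1, a collagen chain, at 0.49 ± 0.21. The score of this list was 7.74 to 8.001 in the ethanol rats and 7.65 to 8.13 in the control rats.

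**Figure D4:**
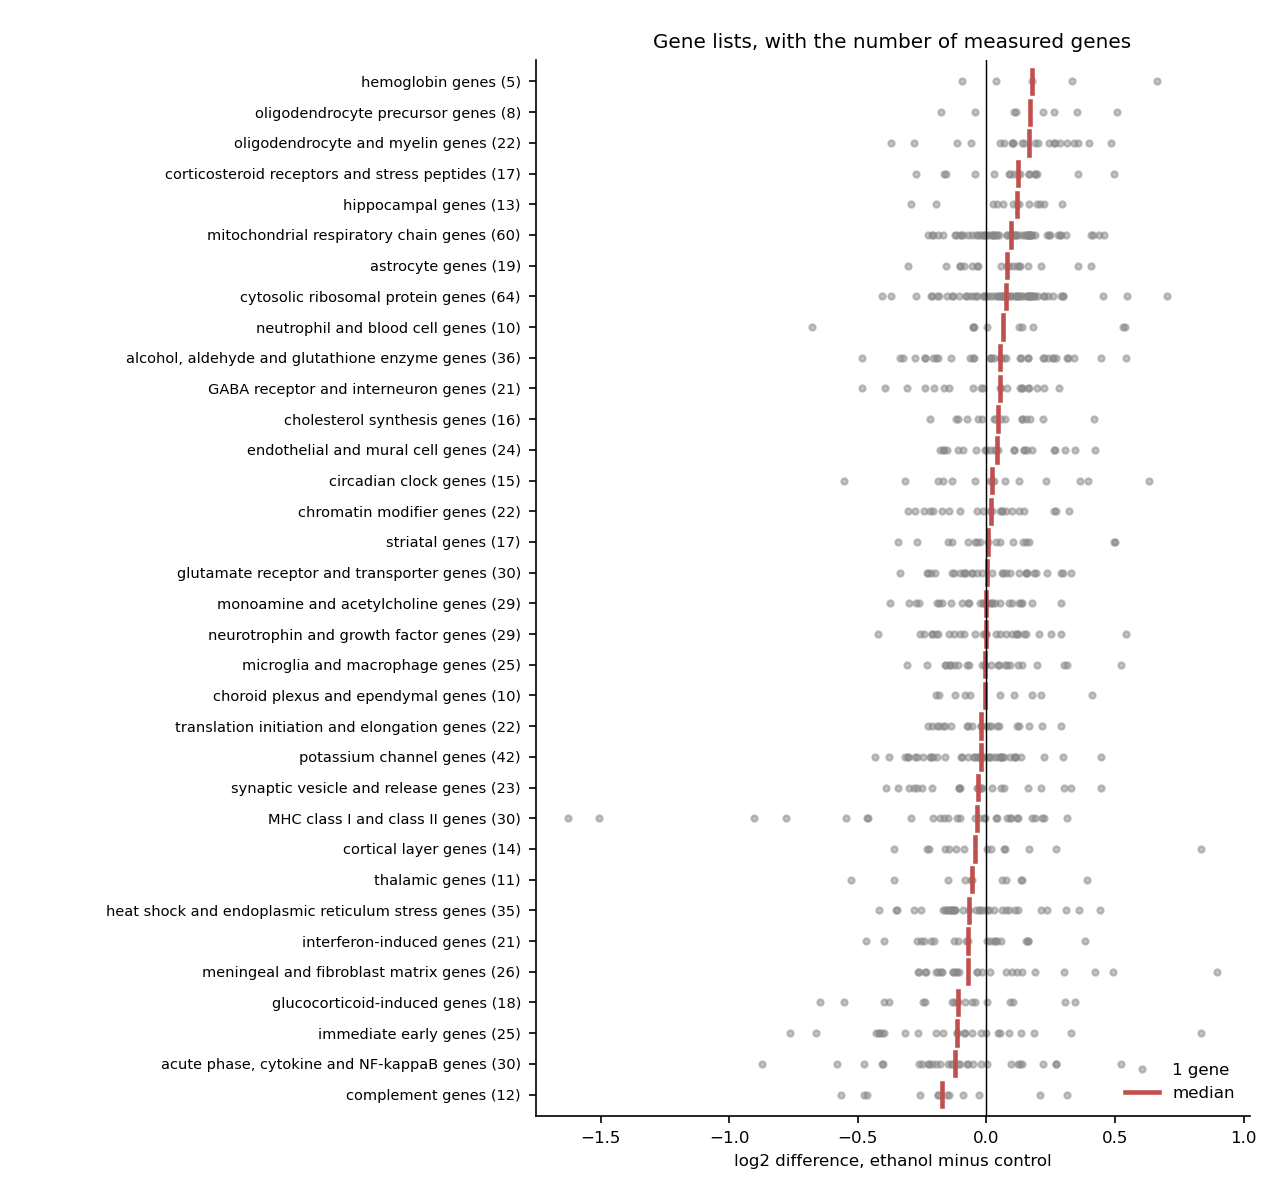
Log2 difference (ethanol minus control) of each measured gene of 34 lists, ordered by the list's median (bar), with the number of measured genes in parentheses. Complement genes have the lowest median, -0.172, and hemoglobin genes the highest, 0.178. RT1-A1 and RT1-A3 stand far to the left of their own list, while some other RT1 genes lie near or above 0.

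Genes of neurons and synapses had list medians near 0. Of 30 glutamate receptor and transporter genes 15 lay higher and 15 lower, with a median of 0.0009 that was below 0 under 3 of 5 other processings and 0.0193 without ethanol replicate 1. Grin2c, a subunit of the NMDA receptor, differed by 0.33 ± 0.20 and Gria2, a subunit of the AMPA receptor, by -0.23 ± 0.14. Among 21 GABA and interneuron genes 11 lay higher (median 0.0509, or 0.0014 without ethanol replicate 1, and from -0.0233 to 0.0794 with each rat left out in turn). Reln, a matrix protein of interneurons, had levels of 8.31 to 10.77 (median 10.35) in the ethanol rats and 9.91 to 11.26 (median 10.66) in the control rats. It differed by -0.48 ± 0.24, or -0.21 without ethanol replicate 1, which lay far below the rest. Gphn, the scaffold of inhibitory synapses, differed by -0.31 ± 0.15.

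Of 42 potassium channel genes 24 lay lower (median -0.0224, or 0.0499 with median scaling). Kcnc1, a channel of fast-spiking neurons, had levels of 8.12 to 8.99 (median 8.69) in the ethanol rats and 8.76 to 9.25 (median 9.02) in the control rats. It differed by -0.43 ± 0.16 (adjusted p 1), lower on 8 of 8 chips and in all 9 ethanol rats than the control median. Kcna4 differed by 0.45 ± 0.22. The mean level of the list lay below the control median in 8 of 9 ethanol rats. Of 23 genes of vesicle release 15 lay lower (median -0.0327, or 0.0879 with median scaling and -0.0786 without ethanol replicate 1), with Synj1, a phosphatase of vesicle recycling, at -0.39 ± 0.17 and Rab3a at -0.34 ± 0.17.

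Of 29 monoamine and acetylcholine genes 16 lay lower (median -0.0031, or 0.0263 with median scaling and 0.0059 without ethanol replicate 1), Chrnb2, a nicotinic receptor subunit, at -0.38 ± 0.18 and Htr2a, a serotonin receptor, at -0.30 ± 0.21. Of 29 growth factor genes 16 lay lower (median -0.0034, or 0.0328 with median scaling), while Gfra1, a receptor of glial cell line-derived factor, lay at 0.54 ± 0.24 and Erbb4, a neuregulin receptor, at -0.42 ± 0.19. Each of these lists had at most 2 members at an unadjusted p below 0.05 in either direction.

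Genes of cell stress, the clock and chromatin were mixed in direction. Of 35 heat shock and endoplasmic reticulum stress genes 22 lay lower (median -0.0677), which median scaling turned to 0.0711. Manf, a secreted stress protein, differed by 0.44 ± 0.20 and Creld2 by -0.35 ± 0.16. The lowest control value of Manf, 7.41, belonged to the rat hybridized 9 times, whose other arrays read 8.398 to 9.145. Of 15 clock genes 9 lay higher (median 0.0213, or -0.0063 with detected probes as a covariate). Beside Per1, Nfil3, a transcription factor of the clock's output, had levels of 6.46 to 8.07 (median 7.56) in the ethanol rats and 5.38 to 7.94 (median 7.04) in the control rats. It differed by 0.63 ± 0.25, and Bhlhe40, a repressor in the clock, by -0.32 ± 0.18. Of 22 chromatin modifiers 12 lay higher (median 0.017, or -0.0466 with that covariate and -0.0317 without ethanol replicate 1), and Dnmt1, the maintenance DNA methyltransferase, had levels of 8.06 to 8.81 (median 8.62) in the ethanol rats and 8.48 to 9.26 (median 8.84) in the control rats, all 9 ethanol rats below the control median, with a difference of -0.28 ± 0.13 (adjusted p 1).

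Genes of other brain regions and of the choroid plexus were examined for dissection. Of 17 striatal genes 9 lay higher (median 0.0055), of 11 thalamic genes 5 (median -0.0569), of 13 hippocampal genes 11 (median 0.117) and of 10 choroid plexus genes 5 (median -0.0048). The medians of the striatal, thalamic and choroid plexus lists changed sign under at least 1 of 5 other processings, and without ethanol replicate 1 they were -0.0057, 0.096 and 0.0558. Of the thalamic genes, Necab1 differed by -0.53 ± 0.21, lower on 8 of 8 chips, and Synpo2 by 0.39 ± 0.18. Of 14 cortical layer genes 7 lay higher (median -0.0431, or 0.0607 with median scaling and 0.0376 without ethanol replicate 1). The scores of these lists overlapped between the groups, with exact permutation p-values from 0.228 for the hippocampal to 0.919 for the cortical layer genes.

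The pairfed rats separate ethanol from the diet's form and amount. In the same tissue, injection and day, 9 pairfed rats were set against the 9 control rats and the 9 ethanol rats. Limma called 0 of 15250 probes for pairfed against control (0%), with 635 at an unadjusted p below 0.05 (4.16%), and 0 for ethanol against pairfed (0%), with 381 (2.5%). These comparisons share groups with the main one, so their values are given side by side and not counted together.

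For some genes, grouped here after their values were seen, the pairfed rats lay near the ethanol rats. Igfbp6 differed from control by 0.79 in the pairfed and 0.90 in the ethanol rats, and Rpl27 by 0.52 and 0.70. Ddr1 differed by 0.64 and 0.78, and Gprasp1 by -0.46 and -0.62. The ethanol minus pairfed difference of these 4 genes was 0.10, 0.18, 0.13 and -0.16, each with an unadjusted p of 0.291 or more.

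For others the pairfed rats lay nearer the control rats. Junb differed from control by -0.09 in the pairfed and -0.66 in the ethanol rats, and Fos by -0.04 and -0.77. Tex10 differed by -0.30 and -0.97, and Ccl5 by -0.17 and -0.87. Ethanol minus pairfed was -0.57 ± 0.20 for Junb, -0.73 ± 0.26 for Fos, -0.67 ± 0.21 for Tex10 and -0.70 ± 0.28 for Ccl5, with adjusted p of 1 for each. S100a8 and Lcn2 lay lower in ethanol than in pairfed rats, with differences of -0.86 ± 0.32 and -0.79 ± 0.31, also with an adjusted p of 1. Their ethanol minus control differences were -0.68 and -0.11, so for Lcn2 it was the ethanol rats that lay nearer the control rats. Complement genes had a median of 0.0188 for pairfed minus control and -0.184 for ethanol minus pairfed, and immediate early genes -0.0864 and -0.0543. As a list, then, immediate early genes leaned lower in the pairfed rats too, unlike Junb and Fos.

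Whether the difference belonged to the inflamed state was asked with saline rats of the same day, 5 ethanol and 5 control. In them limma called 0 of 15250 probes (0%), with 773 at an unadjusted p below 0.05 (5.07%). The difference between the adjuvant and saline contrasts was called for 0 probes (0%), with 810 at an unadjusted p below 0.05 and a smallest adjusted p of 0.486. Of the 24 leading genes, 11 had the same direction in the saline rats, and the median size of the difference over the 24 was 0.193 in place of 0.654. The 24 had been chosen by their p in the adjuvant rats, where the sizes were bound to be large.

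Some genes that an earlier account of these data singled out had estimates of opposite sign in the 2 states. That account had picked them for diet differences in the adjuvant response, a choice that by itself favours opposite signs and small p-values here. Ap1s2, a subunit of an adaptor of vesicle transport, differed by -0.36 ± 0.15 in adjuvant rats and 0.73 ± 0.21 in saline rats. Plekha4 differed by -0.57 ± 0.24 and 1.05 ± 0.32, and Per1 by -0.55 ± 0.18 and 0.64 ± 0.24. Repeat arrays of 1 control rat ran from 8.83 to 9.84 for Ap1s2, 5.13 to 7.18 for Plekha4 and 7.78 to 9.29 for Per1. For Tex10 the values were -0.97 and 0.49, and for Rpl27 0.70 and -0.45. The unadjusted p of the change was 5.82e-05 for Ap1s2, 0.000109 for Tex10, 0.000132 for Plekha4, 0.000159 for Per1 and 0.000192 for Rpl27, and the adjusted p was at least 0.486.

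After saline, 15 of 25 immediate early genes had a higher level in ethanol than in control rats, with a median of 0.149, against 7 of 25 and -0.113 after adjuvant, and the difference between these medians was not tested. Junb was 0.30 ± 0.28 in saline rats, Fos 0.55 ± 0.36, Arc 0.69 ± 0.34 and Dusp6 0.56 ± 0.25. The class I and class II list had a median of 0.21 after saline, and RT1-A1 differed by 1.32 ± 0.80. The interval of a saline difference was wider, at 0.491 to either side for a typical probe.

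At day 39, with 9 ethanol and 9 control adjuvant rats of their own, limma called 0 of 15250 probes (0%), with 721 at an unadjusted p below 0.05 (4.73%). The change of the difference from day 39 to day 16 was called for 0 probes (0%), with 661 at an unadjusted p below 0.05. Of the 24 leading genes 18 had the same direction at day 39, with a median size of 0.0941. Tex10 stood at -0.06, Adora2b at 0.06 and Junb at -0.12, each ± 0.21 or less. Il1rapl1 differed by -0.77 at day 16 and 0.34 at day 39, with an unadjusted p for the change of 0.000251 and an adjusted p of 0.764. Complement genes had a median of 0.061 at day 39 and immediate early genes -0.0198.

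The hippocampus of the same 18 rats was measured on other chips. Limma called 0 of 15320 probes there (0%), with 692 at an unadjusted p below 0.05 (4.52%), and the difference between the tissues was called for 0 of 14441 probes (0%), with 594 at an unadjusted p below 0.05. Of the 24 leading genes 14 had the same direction in the hippocampus, with a median size of 0.0887. Tex10 was -0.0046 ± 0.25 there and Adora2b 0.02 ± 0.21. Tmem109 differed by 0.67 in the cortex and -0.37 ± 0.18 in the hippocampus, with an unadjusted p of 0.00022 and an adjusted p of 1 for the tissue difference.

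These 3 class I genes lay lower in both tissues. RT1-A1 differed by -1.96 ± 0.64 in the hippocampus, RT1-A3 by -1.37 ± 0.58 and RT1-T24-4 by -1.31 ± 0.34. Nfil3 differed by 0.73 ± 0.30 there and Txnrd1 by -0.62 ± 0.22. Complement genes had a median of -0.179 (-0.172 in the cortex) and immediate early genes -0.0639. Because both tissues came from the same rats, these values repeat the rats and not the experiment.

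**Figure D5:**
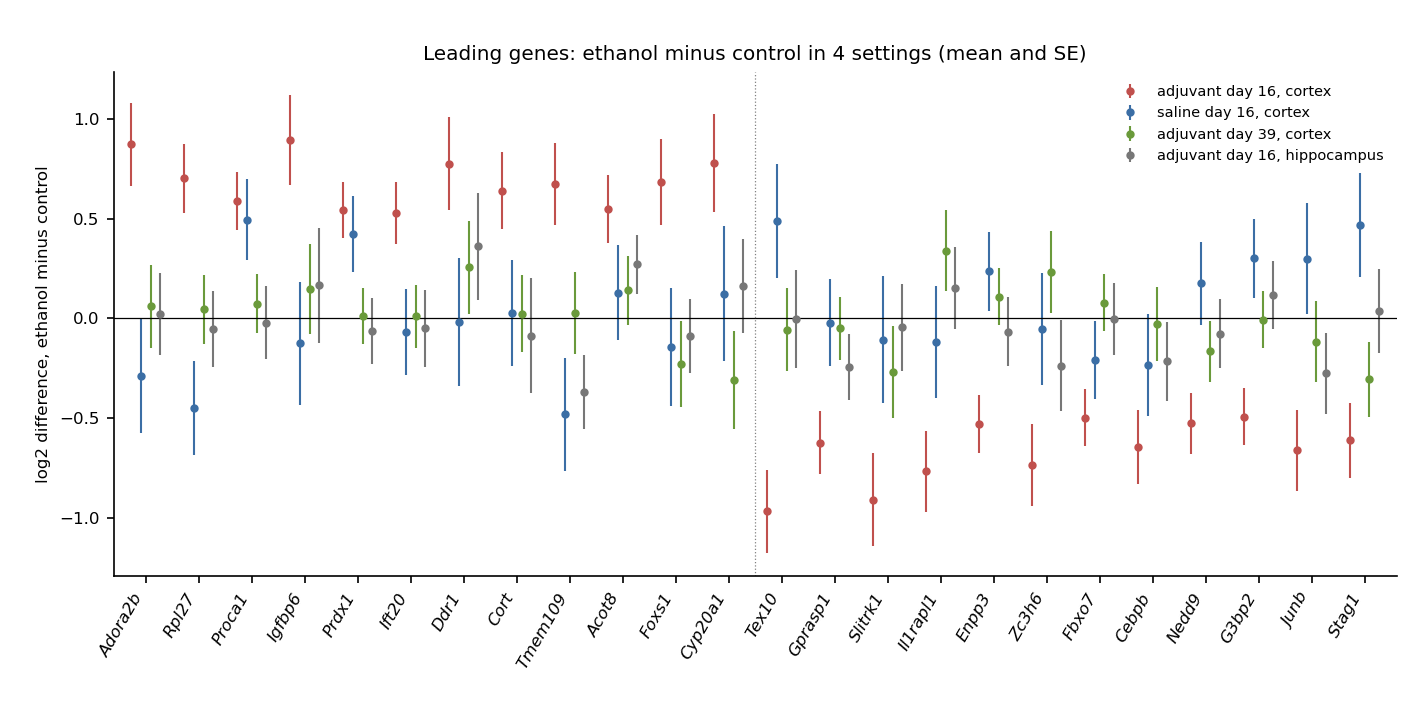
Log2 difference between ethanol and control rats (mean and SE from limma) of the 24 leading genes in the cortex at day 16 after adjuvant, where they were chosen, in the cortex at day 16 after saline, in the cortex at day 39 after adjuvant and in the hippocampus at day 16. The median size is 0.654 in the first and 0.193, 0.0941 and 0.0887 in the others.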

How the data were processed

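Illumina rat BeadChips were read for 192 arrays, of which 87 prefrontal cortex and 84 hippocampus arrays entered with 1 array per rat. Per the file headers, the authors deposited a signal that was not normalized, together with a detection p-value for each probe. That this deposited signal is log2 was inferred from its values (3.65 to 15.4), and no source used here states the scanner software or a background step. The authors' deposited value table, also log2, ranks each array's probes as its raw signal does, and its columns have medians of 7.13 (prefrontal cortex) and 7.19 (hippocampus), so its arrays were scaled alike within a tissue. Per the labels' protocols, 250 ng of RNA was amplified in batches spread over the groups, and no label names a sample's batch.

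The raw log2 signal was made linear, and background was removed by normexp with negative controls inferred from the detection p-values (offset 16). All arrays were then quantile-normalized together and put back on log2 (limma 3.58.1, statmod 1.5.0, R 4.3.3). The offset makes folds of dim probes too small. A probe was tested where 5 or more arrays of the tissue detected it (detection p below 0.05). Of 22502 probes 13787 have 1 gene symbol in the platform annotation, 13747 of them current, and a gene was represented in lists by its probe of highest mean. limma fitted all 12 groups of a tissue, which share 1 estimate of the spread, and the chip was a fixed block; p-values were adjusted by Benjamini-Hochberg over all probes tested. The tissue difference came from a joint fit with rat as a random block (correlation 0.0327). Array scores were compared by exact two-sided permutation of the 18 rats over 48620 assignments.

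The groups, the 34 gene lists and the rule for named genes were chosen with earlier results of these data known. The rule took the 12 named probes with the smallest p in each direction, 2 unnamed ones, up to 4 members of each list and 17 genes singled out before, and the text names 102 of these, picked with their values known. The fit was checked on simulated data. The number of rats, 9 a group, limits the precision.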

Additional observations from a re-analysis of the deposited data

Results flagged for a closer look

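A rat was set apart when its gap to the nearest rat of its group was an unusually large share of the group's range. Over 234 tests of named genes and array scores in the 2 groups of 9 rats, 15 were set apart (6.41%), where chance gives about 1 in 20. Ethanol replicate 1 accounted for 6 of the 15, the most of any rat. It was the lowest of its group for Txnrd1 (5.66, next 7.38, gap share 0.743), RT1-T24-4 (5.12, next 6.06, gap share 0.692), Reln (8.31, next 9.98, gap share 0.68), the cortical layer score (8.47, next 8.77, gap share 0.586) and Atp5pf (11.75, next 12.21, gap share 0.575), and the highest for Rpl27 (13.28, next 12.82, gap share 0.548). Its array detected 10093 probes, the median of its group.

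Control replicate 5, whose array detected the fewest probes of the 18 (8890), was the lowest of its group for Acot8 (gap share 0.741), Dusp6 (gap share 0.711) and Bhlhe40 (gap share 0.57). Control replicate 1 was the lowest for Ctss (gap share 0.589) and for ILMN_1365399 (gap share 0.562). Single values were those of Penk in control replicate 8, the lowest (gap share 0.602), of Nr4a2 in ethanol replicate 7, the lowest (gap share 0.552), of Fos in control replicate 2, the highest (gap share 0.547), and of Tmem109 in ethanol replicate 6, the highest (gap share 0.528).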

How the results depend on the processing

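The count of 0 probes for ethanol against control was repeated under 17 other settings and without each of the 18 rats. It was 1 in the fit of the adjuvant day 16 groups alone, where Tex10 passed (difference -0.945, adjusted p 0.0157), and 0 in the other 16, with smallest adjusted p-values up to 0.482. Leaving out 1 rat gave 0 to 1 calls, with smallest adjusted p-values of 0.0442 to 0.55. The 1 call, ILMN_1353443 (-0.671, adjusted p 0.0442), came without control replicate 1. The replicate numbers do not pair the rats: deviations of the 9 same-numbered pairs correlated between -0.101 and 0.0878, and 1 rat of 9 matched its own number best. Replicate numbers in place of chip as the block (replicate block) gave 0 calls and a smallest adjusted p of 0.129, and 0 in each of the other comparisons it was run for. Weighting arrays by their quality gave 0 calls and a smallest adjusted p of 0.0828. Leaving out the array of pairfed saline replicate 3 gave 0 calls and a smallest adjusted p of 0.0574. For the difference between the adjuvant and saline contrasts, testing all probes without a filter gave 1 call, ILMN_1358575, with an adjusted p of 0.0223. All other counts, that of the 15 scores included, remained 0 under the settings run for them.

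Of 3558 values of 102 named genes and probes under these settings, 3543 kept their direction and did not pass the test, and 98 of the 102 did not change direction anywhere. Those that did were Acer2, Vwf, Hbb and Lcn2. With median scaling, which moved the median of all probes from 0.0059 to 0.074, Acer2 became 0.00121, Vwf 0.0302 and Hbb 0.0918, and with array weights Hbb became 0.162. Without 1 rat in turn, the values ran from -0.329 to 0.0546 for Lcn2, from -0.209 to 0.0205 for Vwf and from -0.221 to 0.0253 for Hbb. At an unadjusted p below 0.05, 460 of 9600 probes passed with a stricter filter and 1045 of 22502 with none, in place of 723. The cause of these changes was not tested.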
